A study of Mus musculus with 24 samples.

Results

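The genotype difference in the cochlea at P13, around the onset of hearing in mice, was read at 1 probe set per gene. Of the 24 arrays of the series, 6 belonged to this age. They were 3 arrays of α9-/- cochleae, from mice that lack the α9 subunit of the nicotinic acetylcholine receptor in every cell, and 3 arrays of wild type cochleae. All mice were 129S6 x CBA/CaJ hybrids, backcrossed to CBA/CaJ, and each array held RNA of pooled cochleae, so the pool was the replicate. For each gene the probe set with the highest mean log2 signal over the 24 arrays was kept, among the probe sets that name exactly 1 gene, which left 18194 genes out of 45101 probe sets. A gene was called at an adjusted p under 0.05 from limma when it also had the same sign against wild type replicate 3 alone, since wild type replicates 1 and 2 had low signal at the 5′ end of the Gapdh control.

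The α9 subunit forms, with α10, the receptor through which efferent fibers from the brainstem inhibit outer hair cells. Between birth and hearing onset these fibers first contact inner hair cells and then move to outer hair cells. A dissected cochlea also holds bone and its marrow, nerve, vessels and, depending on the dissection, adjacent muscle. Marrow produces granulocytes, B cells and red cells. Eosinophils carry cationic granule proteins and the receptor Siglec-F, mast cells and basophils carry the high-affinity IgE receptor, and neutrophils carry granule proteins such as lactoferrin and lipocalin. In such bulk RNA, fewer cells of a type and less RNA per cell cannot be told apart.

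Of the 12 genes named as lowest in α9-/- cochleae at P13, 7 are known from white blood cells (Ear3, P2ry10, Itgb2l, Prg3, Siglecf, Clec2d and Ms4a2) and 3 from the muscle Z-disc (Myot, Synpo2l and Pdlim3), a grouping made after their values were seen. P2ry10, Siglecf, Itgb2l and Cd69, expressed in lymphocytes, eosinophils, neutrophils and activated lymphocytes, differed by -2.21, -1.92, -1.84 and -1.93 on the log2 scale, and they were the genes that remained called when low 5′ signal was entered as a term in a fit over all 24 arrays. By list, 3 of 9 eosinophil genes, 7 of 22 neutrophil genes (with 1 higher), 4 of 20 B cell genes and 2 of 32 skeletal muscle genes were called lower. The share called lower over all genes tested was 2.92%. Higher in α9-/- were 199 genes with diverse functions (1.09% of the genes tested). Among them were Col11a2 and Otoa of the tectorial membrane region, Calb2 and Pou4f3 of hair cells and Gjb1 and Pllp of myelin. These were 2 genes each of lists of 18, 16 and 16 measured genes, with list medians of -0.00201, -0.0834 and 0.409. Most of the 199 genes also had higher signal on intact than on 5′-poor arrays of the same genotype at other ages. Most of the genes called lower had lower signal on those intact arrays. The median was -0.614 for them, beside -0.262 over all genes.

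The sequence just before the start site is shown for 5 of the lower genes. P2ry10, Siglecf and Itgb2l stayed called in the fit with low 5′ signal as a term, as did Cd69, which is not shown. Ms4a2 is a mast cell gene and Pglyrp1 a neutrophil granule gene. Each run covers the 120 bases before a RefSeq start (GRCm38.p6), 5′ to 3′ on the gene's strand. Capitals mark the motif of GATA factors (GATA with A or T before it and A or G after it) and the core of the motif of PU.1 (GAGGAA), a myeloid and B cell factor, both on either strand.
P2ry10, first start, chrX:107088372-107088491, plus strand: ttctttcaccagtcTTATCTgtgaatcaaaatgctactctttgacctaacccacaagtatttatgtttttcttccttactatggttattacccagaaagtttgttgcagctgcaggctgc
P2ry10, second start, chrX:107089213-107089332, plus strand: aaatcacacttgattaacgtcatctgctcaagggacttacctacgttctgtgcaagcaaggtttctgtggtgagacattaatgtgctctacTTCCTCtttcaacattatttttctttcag
Siglecf, chr7:43351221-43351340, plus strand: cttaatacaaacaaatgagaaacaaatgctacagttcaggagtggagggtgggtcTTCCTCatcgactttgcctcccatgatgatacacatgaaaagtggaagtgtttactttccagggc
Itgb2l, chr16:96443615-96443734, minus strand: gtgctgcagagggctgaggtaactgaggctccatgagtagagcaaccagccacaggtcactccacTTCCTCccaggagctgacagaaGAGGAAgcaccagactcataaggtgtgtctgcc
Ms4a2, chr19:11623720-11623839, minus strand: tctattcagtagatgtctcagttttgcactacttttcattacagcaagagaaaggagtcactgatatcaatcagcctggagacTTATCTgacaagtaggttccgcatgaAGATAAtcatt
Pglyrp1, chr7:18884570-18884689, plus strand: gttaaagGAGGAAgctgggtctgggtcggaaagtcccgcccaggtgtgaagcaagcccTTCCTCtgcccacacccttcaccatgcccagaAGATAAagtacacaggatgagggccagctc

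Ms4a2 held 2 GATA motifs in this window, and Itgb2l and Pglyrp1 each held 2 PU.1 cores. Over all 32851 promoters of the RefSeq set, 12.8% held a GATA motif and 11.6% a PU.1 core within 120 bases before the start. Among promoters of the genes called lower at P13, 61 of 521 (11.7%) held a GATA motif and 90 of 521 (17.3%) a PU.1 core, against 8.60% and 11.2% of the 18110 promoters of genes tested. Promoters of the genes called higher held them in 21 of 227 (9.25%) and 25 of 227 (11%). A match is a description of these letters, not of a bound site.

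The targeted gene, Chrna9, had low signal in both genotypes. Its brightest probe set read 5.56, 5.34 and 5.38 on the 3 α9-/- arrays, against 5.80, 5.36 and 5.28 on the 3 wild type arrays. The groups overlapped, with a difference of -0.06 (adjusted p = 0.859, limma). A dimmer Chrna9 probe set read 4.15, 3.72 and 3.60 in α9-/- and 5.08, 4.53 and 4.64 in wild type, without overlap. A further one read 4.82, 4.50 and 4.45 in α9-/- and 4.78, 4.03 and 3.99 in wild type, with overlap (difference 0.32). The sources used here do not say whether any of the 3 probe sets lies in the deleted part, so this is no check of the genotype.

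The quality controls differed between the genotypes at this age. The log2 signal of the Gapdh control at its 3′ end exceeded that at its 5′ end by 0.335, -0.146 and -0.150 on the α9-/- arrays, against 6.30, 6.47 and 2.43 on the wild type arrays. The means were 0.0132 ± 0.279 in α9-/- and 5.07 ± 2.29 in wild type (SD, n = 3 each; p = 0.1 by an exact two-sided permutation test, which cannot go lower with 3 arrays in each genotype). The Actb control gave 0.911 ± 0.0359 in α9-/- and 3.29 ± 1.74 in wild type (SD, n = 3 each; exact p = 0.1). By both controls each wild type array lay above each α9-/- array, wild type replicate 3 included. Pearson r between arrays was 0.980 to 0.990 within α9-/-, 0.964 to 0.981 within wild type and 0.947 to 0.982 between them. Genotype and 5′ signal cannot be told apart within this age. Poly-A control transcripts, which are added to the RNA before labeling, were present on replicate 1 and absent from replicates 2 and 3 of both genotypes.

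In the fit of the 6 arrays, 199 genes were called higher in α9-/- (1.09% of the genes tested) and 532 lower (2.92%). Before adjustment 1217 genes were higher and 4013 lower at that p. The median difference over all genes was -0.218, and it was -0.155 against wild type replicate 3, so that changes are best read relative to this shift. Where the 6 arrays were normalized again by quantiles, the shift was -0.0456 and the share of higher genes among those called was 60.3%, in place of 27.2%. With arrays centred on their median gene the share was 56.9%. The 731 called genes did not overlap between the genotypes on any array, as was so for 34.4% of all genes. The counts rested on single arrays: without 1 α9-/- array, 3 to 8 genes were higher and 0 to 3 lower, and without wild type replicate 1 or 2, 12 or 9 were higher and 12 or 27 lower. Differences were larger among the higher genes, of which 83 exceeded 1.5 on the log2 scale, than among the lower genes, of which 36 did.

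**Figure D1:**
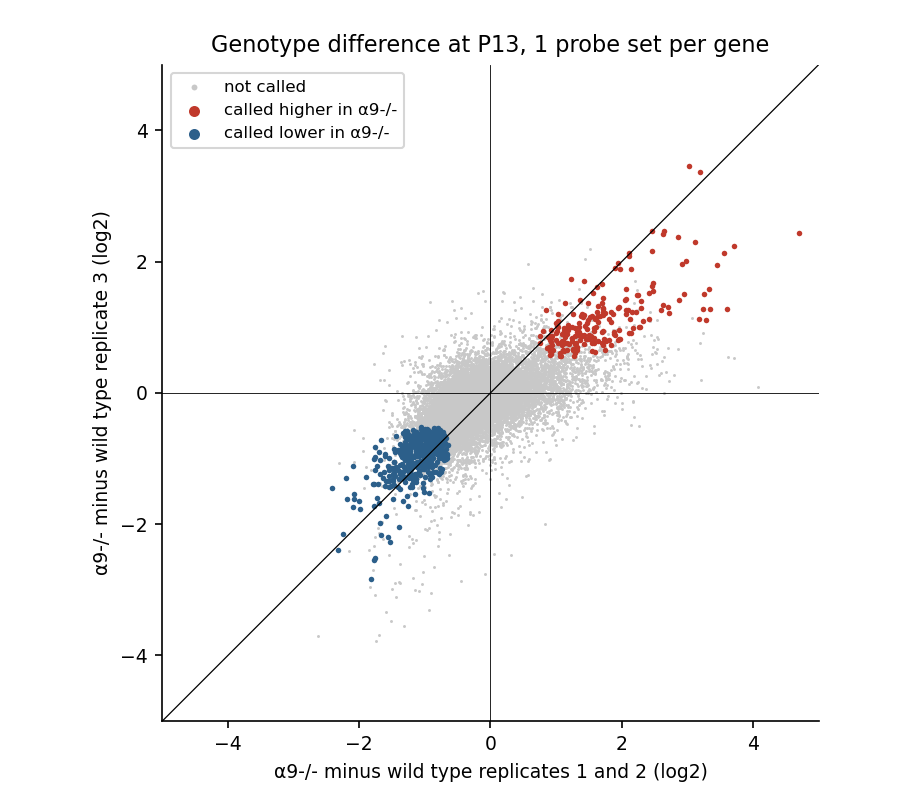
Log2 difference of each gene at P13, α9-/- minus the mean of wild type replicates 1 and 2 (x axis) and α9-/- minus wild type replicate 3 (y axis), with 1 point per gene and the diagonal of equal differences. Genes called higher lie mostly below the diagonal, with a median of 1.58 on the x axis and 1.00 on the y axis, while genes called lower lie closer to it, with -1.05 and -0.862.

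Every gene that passed the adjusted p also had the same sign against wild type replicate 3, so the sign requirement removed none, and 79.2% of all genes had this sign. The replicate that had more 5′ signal gave smaller differences. The genes called higher had a median difference of 1.58 against wild type replicates 1 and 2 and 1.00 against replicate 3. For genes called lower the medians were -1.05 and -0.862. When replicate 3 was left out of the fit, 907 genes were higher and 1536 lower. Against the left-out array, 88.9% of these higher genes kept their sign, with a median of 0.399, and 95.6% of these lower genes, with a median of -0.523. Over all genes, 73.5% had the same sign against replicate 3 as against replicates 1 and 2. The same 3 α9-/- arrays enter on each side of this comparison, so the signs were not independent. With the left-out array alone as wild type, 4 genes were called higher and 25 lower.

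The genes called at P13 were then read in comparisons that hold no P13 array. In 3 other groups (P3 α9-/-, P3 wild type and P60 wild type) 1 array had low 5′ signal and the others did not, and the signal of the intact arrays minus that of the low array was taken within each group. The median of these values was above 0 for 95.5% of the genes called higher at P13, with a median of 1.04 on the log2 scale. It was above 0 for 3.57% of the genes called lower, with a median of -0.614, and the median over all genes was -0.262. At P7, where no array had low 5′ signal, the genotype difference had a median of 0.0115 for the genes called higher at P13 and -0.0291 for those called lower. At P60, where 1 wild type array was low, the medians were 0.491 and -0.425, beside -0.119 for all genes. At P3, where each genotype had 1 low array, they were -0.319 and 0.113. The part of 5′ signal in the P13 calls was not tested gene by gene. For 23 of the genes called higher (11.6%) the intact-minus-low value was under 0.25, and for 63 of the genes called lower (11.8%) it was above -0.25.

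**Figure D2:**
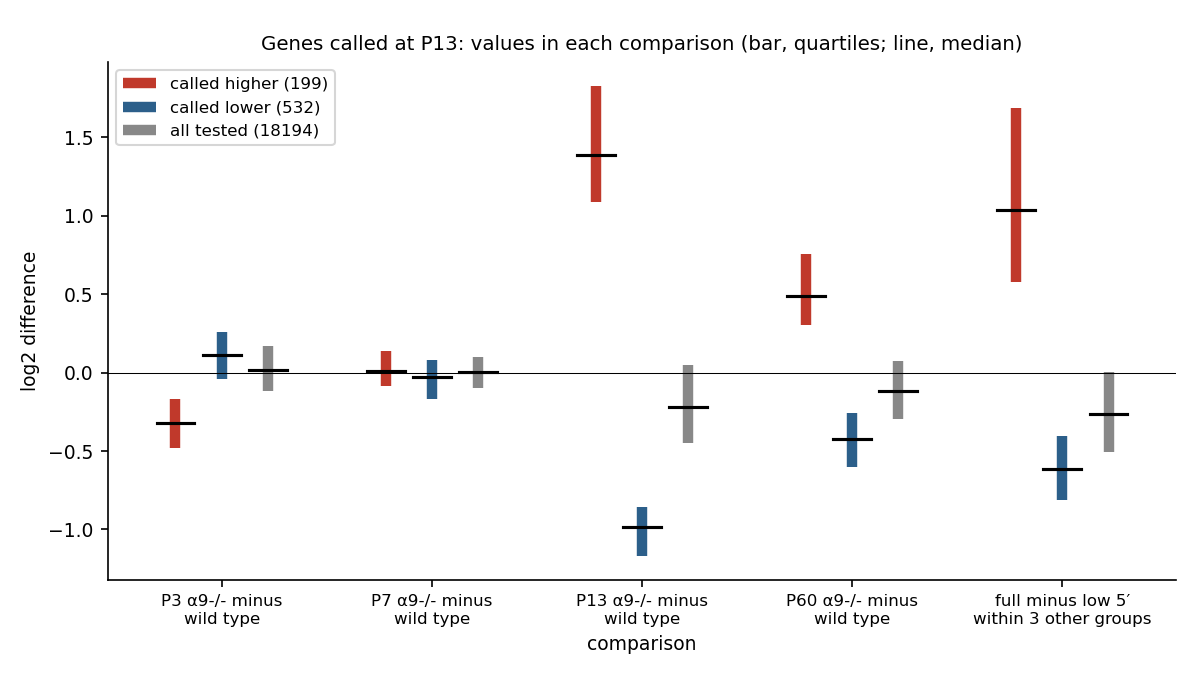
Log2 differences of the 199 genes called higher, the 532 called lower and all 18194 genes tested (y axis) in 5 comparisons (x axis), with bars for the quartiles and lines for the median over genes. The last comparison is the signal of intact arrays minus that of the low 5′ array within 3 groups of other ages; its medians of 1.04 and -0.614 lie on the same sides as the P13 differences, while the P7 medians of 0.0115 and -0.0291 lie near 0.

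Among the genes called lower, P2ry10, a receptor of the P2Y family found on lymphocytes, had a signal of 4.72, 4.28 and 4.24 on the α9-/- arrays, against 6.59, 6.73 and 6.56 on the wild type arrays. All α9-/- arrays lay below all wild type arrays, and wild type replicate 3 stood with the other wild type arrays. The difference was -2.21 and against replicate 3 it was -2.15 (adjusted p = 0.00976, limma). The gene was also read at other ages. At P60 it had 4.64, 4.68 and 4.67 in α9-/- and 6.64, 5.66 and 5.83 in wild type, a difference of -1.38 ± 0.20 (SE; adjusted p = 0.00998, limma over 24 arrays), and it was 1 of 4 genes that were lower at that age in this fit. The fit had no term for 5′ signal, and the wild type array of low 5′ signal at P60 was the highest, at 6.64. At P3 and P7 the genotypes differed by 0.18 and -0.12, with mean signals of 2.91 to 3.45. These lie near the lowest value of the series, 2.35, so a decrease could hardly be read there. The effect at P13 minus the mean effect of the other ages was -1.77 ± 0.23 (SE; adjusted p = 0.00407, limma), and P2ry10 was the 1 gene of 18194 for which this difference passed the test. Its call at P13 was lost without α9-/- replicate 2 or 3 (adjusted p = 0.0698 and 0.0877), with differences of -2.15 and -2.13.

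Siglecf, which encodes the eosinophil receptor Siglec-F, had 3.79, 3.89 and 3.69 in α9-/- and 5.70, 5.87 and 5.56 in wild type. The arrays of each genotype lay close together and far from the other genotype, with a difference of -1.92 (adjusted p = 0.00976, limma), and its call was lost without the same arrays (adjusted p = 0.0698 and 0.0946). Its intact-minus-low value was -0.71. At P60 its difference was -0.57 (adjusted p = 0.742). The wild type array of low 5′ signal had 5.04 there, and the others 3.88 and 3.52. Itgb2l, a β2-like integrin subunit of neutrophils, had 7.38, 7.21 and 6.52 in α9-/- and 8.57, 8.85 and 9.20 in wild type. Wild type replicate 3 was its highest array, and the difference was -1.84 (adjusted p = 0.0301). Its call was lost when any 1 of the 6 arrays other than wild type replicate 3 was left out (adjusted p = 0.0526 to 0.137), and its other probe sets differed by -0.34 and -0.01. At P60 it had 6.19, 6.37 and 6.66 in α9-/- and 7.69, 7.43 and 7.29 in wild type, again without overlap, a difference of -1.06 (adjusted p = 0.214). The highest of these, 7.69, was on the wild type array of low 5′ signal. Cd69, a membrane protein induced on activated lymphocytes, was chosen after its values were seen. It had 5.76, 5.64 and 5.30 in α9-/- and 7.73, 7.58 and 7.19 in wild type, a difference of -1.93 (adjusted p = 0.0257).

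These 4 genes were the lower calls that held when all 24 arrays were fitted with low 5′ signal as a term. In that fit their differences were -2.01 ± 0.20 for P2ry10 (adjusted p = 6.22e-05), -1.43 ± 0.21 for Siglecf (0.00681), -1.85 ± 0.27 for Itgb2l (0.00681) and -1.56 ± 0.26 for Cd69 (0.0352). The errors are SE from limma. No gene was called higher in it, while before adjustment 297 genes were higher and 918 lower. Without that term, the same 24 arrays gave 8 higher and 80 lower genes. The term counted P13 wild type replicate 3 as not low. The Gapdh 3′ minus 5′ signal was 2.43 on that array and -0.15 to 0.335 on the α9-/- arrays, a difference that the term does not cover. The term is also a single shift per gene for all ages. At P3, P2ry10, Siglecf and Cd69 had mean signals of 2.91 to 3.39, near the lowest value, so a shift could hardly be read there. For these genes the term may therefore fall short at P13, which was not tested. The intact-minus-low values of P2ry10, Itgb2l and Cd69 were -0.32, -0.33 and -0.36, beside a median of -0.262 over all genes. They are medians over groups that include P3, where P2ry10 and Cd69 had mean signals of 2.91 to 3.19. In P60 wild type the low 5′ array read 6.64 for P2ry10, and the others 5.66 and 5.83. For Cd69 it read 5.67 against 5.05 and 4.16, and for Itgb2l 7.69 against 7.43 and 7.29. Over all genes the median in that group was -0.259.

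**Figure D3:**
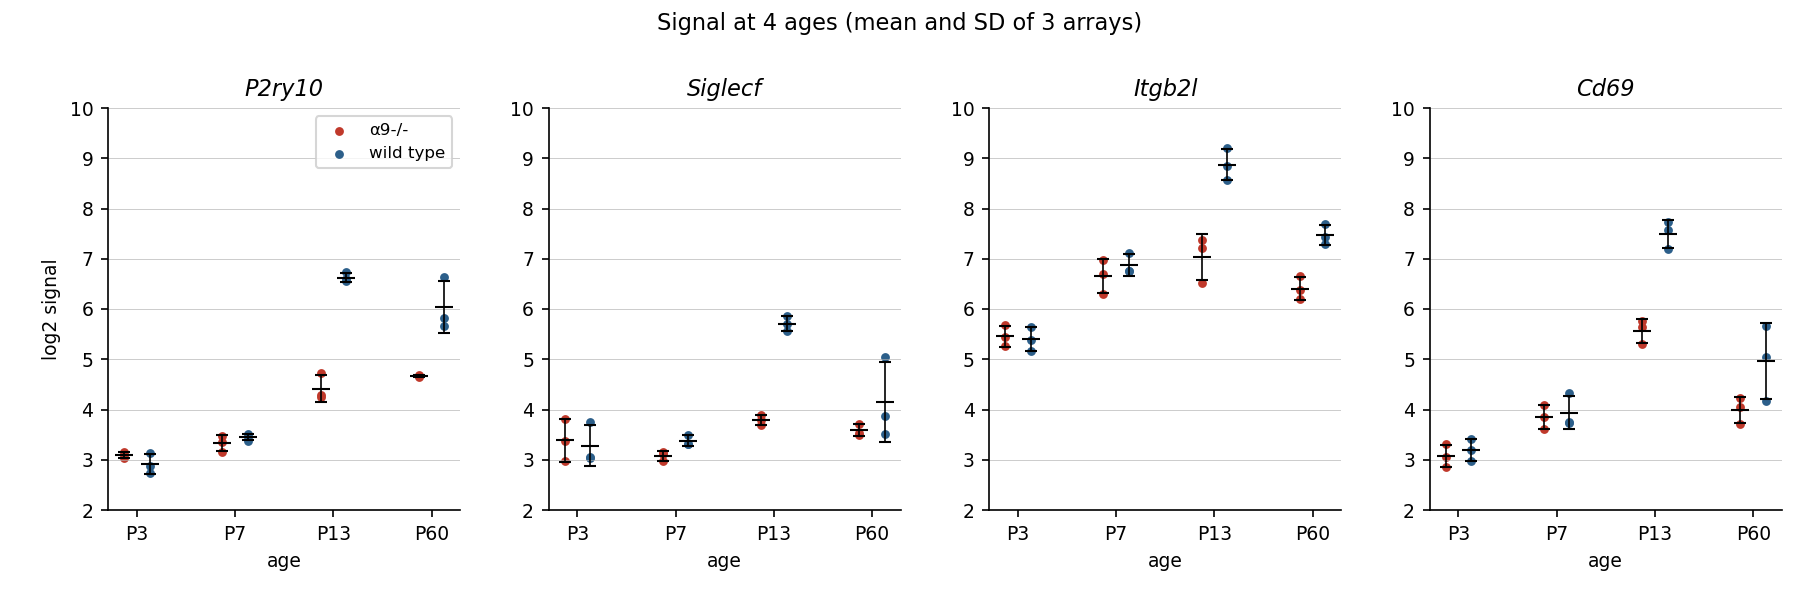
Log2 signal (y axis) of P2ry10, Siglecf, Itgb2l and Cd69 at 4 ages (x axis), 1 point per array, with the mean and SD of 3 arrays in black, α9-/- left of wild type. The genotypes overlap or nearly meet at P3 and P7 and separate at P13, where Siglecf lies at 3.69 to 3.89 in α9-/- and 5.56 to 5.87 in wild type.

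Of 9 measured genes of an eosinophil list, 3 were called lower (Ear3, Prg3 and Siglecf), none higher, and the median difference was -1.85. The share called lower over all genes was 2.92%. Ear3, an eosinophil-associated ribonuclease, had 4.14, 4.72 and 3.75 in α9-/- and 5.62, 7.43 and 6.59 in wild type. The genotypes did not overlap, and the wild type arrays varied more (difference -2.35, adjusted p = 0.0428, limma). With quantile normalization the call of Ear3 was lost (adjusted p = 0.0801). The Ear genes are near-identical copies, so this probe set may also read other members of the family. Prg3, a granule protein, had 6.74, 6.97 and 6.15 in α9-/- and 7.88, 8.73 and 8.61 in wild type, a difference of -1.79 (adjusted p = 0.0351). The intact-minus-low values of Ear3 and Prg3 were -0.3 and -0.7. The eosinophil peroxidase gene Epx had the largest difference of the list, -2.98, and missed the threshold (adjusted p = 0.0566). The mean log2 signal of the list was 5.37 to 6.18 in α9-/- and 6.61 to 7.62 in wild type. The list's median was -0.723 at P60 and -0.119 at P7, and its intact-minus-low median was -0.229, beside -0.262 over all genes. That value includes P3, where Ear3 and Siglecf had mean signals of 2.97 to 3.39, near the lowest value of the series. In P60 wild type the low 5′ array was the highest for Ear3 (6.81 against 6.22 and 4.49) and Prg3 (6.76 against 6.40 and 4.71). It was also the highest for Siglecf (5.04 against 3.88 and 3.52).

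Ms4a2, the β chain of the high-affinity IgE receptor of mast cells and basophils, had 5.91, 5.06 and 5.25 in α9-/- and 7.38, 6.84 and 7.08 in wild type. Its genotypes did not overlap and differed by -1.70 (adjusted p = 0.0308, limma), and its intact-minus-low value was -1.0. Its other probe set differed by -0.23. No list of mast cell genes was fixed, and the following genes were chosen after their values were seen. Hdc, the enzyme of histamine synthesis, was lower by 1.54 on the log2 scale, and the proteases Cpa3 and Mcpt8 differed by -0.77 and -1.0, with adjusted p from 0.0257 to 0.0487. Fcer1a, the α chain of the same receptor, differed by -0.71 and the tryptase gene Tpsb2 by -0.45, and neither passed (adjusted p = 0.0786 and 0.164). The chymase gene Cma1 (-0.69, adjusted p = 0.0683) and Kit, the stem cell factor receptor (-0.45, adjusted p = 0.167), did not pass either.

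Of 22 measured genes of neutrophils and their precursors, 7 were called lower and 1 higher, with a median of -0.660. Of all genes tested, 2.92% were called lower and 1.09% higher. Lcn2, the iron-scavenger lipocalin of secondary granules, had 10.78, 11.14 and 10.57 in α9-/- and 12.45, 11.99 and 12.14 in wild type, a difference of -1.36 (adjusted p = 0.0308, limma). Pglyrp1, a bactericidal peptidoglycan-binding granule protein, had 9.49, 9.37 and 9.35 in α9-/- and 10.91, 10.52 and 10.72 in wild type. Its replicates were tight in both genotypes, and it differed by -1.31 (adjusted p = 0.0257), with an intact-minus-low value of -0.16. Fcnb, a ficolin, and Ms4a3, a marker of granulocyte precursors, differed by -1.53 and -1.29. The intact-minus-low values of Lcn2, Fcnb and Ms4a3 were -0.66, -0.51 and -0.8, and the median of the list was -0.383. Lactoferrin (Ltf), a list member outside the naming rule, differed by -1.03 (adjusted p = 0.0480) and had an intact-minus-low value of 0.65, opposite in sign to its genotype difference. The genes of primary granules Mpo and Elane differed by -0.69 and -0.64 and did not pass, and the 1 higher gene was Itgam, an integrin subunit shared with macrophages (1.27, adjusted p = 0.0370). The list's mean signal was 10.1 to 10.5 in α9-/- and 10.6 to 11 in wild type. Its median genotype difference was 0.164 at P3, -0.47 at P7 and -0.275 at P60. Over all genes these medians were 0.0192, 0.00379 and -0.119, so the list was already lower at P7, where no array had low 5′ signal.

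Of 20 measured B cell genes 4 were called lower and none higher, with a median of -0.652, beside 2.92% of all genes tested called lower. Rag1 and Rag2 encode the recombinase that joins antigen receptor genes. Rag2 had 7.26, 7.24 and 6.82 in α9-/- and 7.93, 8.54 and 8.47 in wild type (difference -1.21, adjusted p = 0.0399, limma). Rag1 differed by -1.02, the adaptor Blnk by -0.76 and the complement receptor Cr2 by -1.25. The intact-minus-low values of Rag2, Rag1, Blnk and Cr2 were -0.65, -0.44, -0.68 and -0.39, with a list median of -0.528. With quantile normalization the calls of Rag1 and Blnk were lost (adjusted p = 0.0588 and 0.0755). The antigen receptor chain Cd79a differed by -0.03, with -1.25 against wild type replicate 3, so its 3 wild type arrays disagreed. Of 18 macrophage genes 2 were lower (Aif1 by -1.11 and Mpeg1 by -0.87) and 1 higher. The calls of Aif1 and Mpeg1 were lost with quantile normalization (adjusted p = 0.0633 and 0.0611). The higher one was C1qa, a complement chain, with 8.87, 9.02 and 8.73 in α9-/- and 6.22, 6.28 and 7.53 in wild type. Wild type replicates 1 and 2 were lowest, and the chains C1qb and C1qc, encoded beside it, differed by -0.42 and 0.02. Erythroid genes, also of marrow, gave 0 calls in 21 (median -0.0945, a mean signal of 10.8 on each α9-/- array and 10.6 to 11 in wild type).

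Gbp2 and Gbp3, interferon-induced guanylate-binding proteins, differed by -0.95 and -1.36 and were 2 of 22 interferon genes called, all lower, with a list median of -0.528. The intact-minus-low median of that list was -0.509. Of 29 cell cycle genes 2 were lower, the mitotic kinases Bub1 (-0.97, adjusted p = 0.0483) and Ttk (-0.91, adjusted p = 0.0446), with a list median of -0.399. Of all genes tested, 2.92% were called lower. The calls of Gbp2, Bub1 and Ttk were lost with quantile normalization (adjusted p = 0.0843, 0.0751 and 0.0707) and with median centring (0.0754, 0.0750 and 0.0722). Orm1, an acute-phase plasma protein, had 4.33, 4.52 and 4.28 in α9-/- and 5.82, 6.47 and 6.89 in wild type, a difference of -2.02 (adjusted p = 0.0257, limma) with an intact-minus-low value of -0.08. Clec2d, a ligand of a natural killer cell receptor, differed by -1.68 (adjusted p = 0.0263) and Tmem45a2 by -1.76 (adjusted p = 0.0257). Their intact-minus-low values were -0.69 and -0.73.

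**Figure D4:**
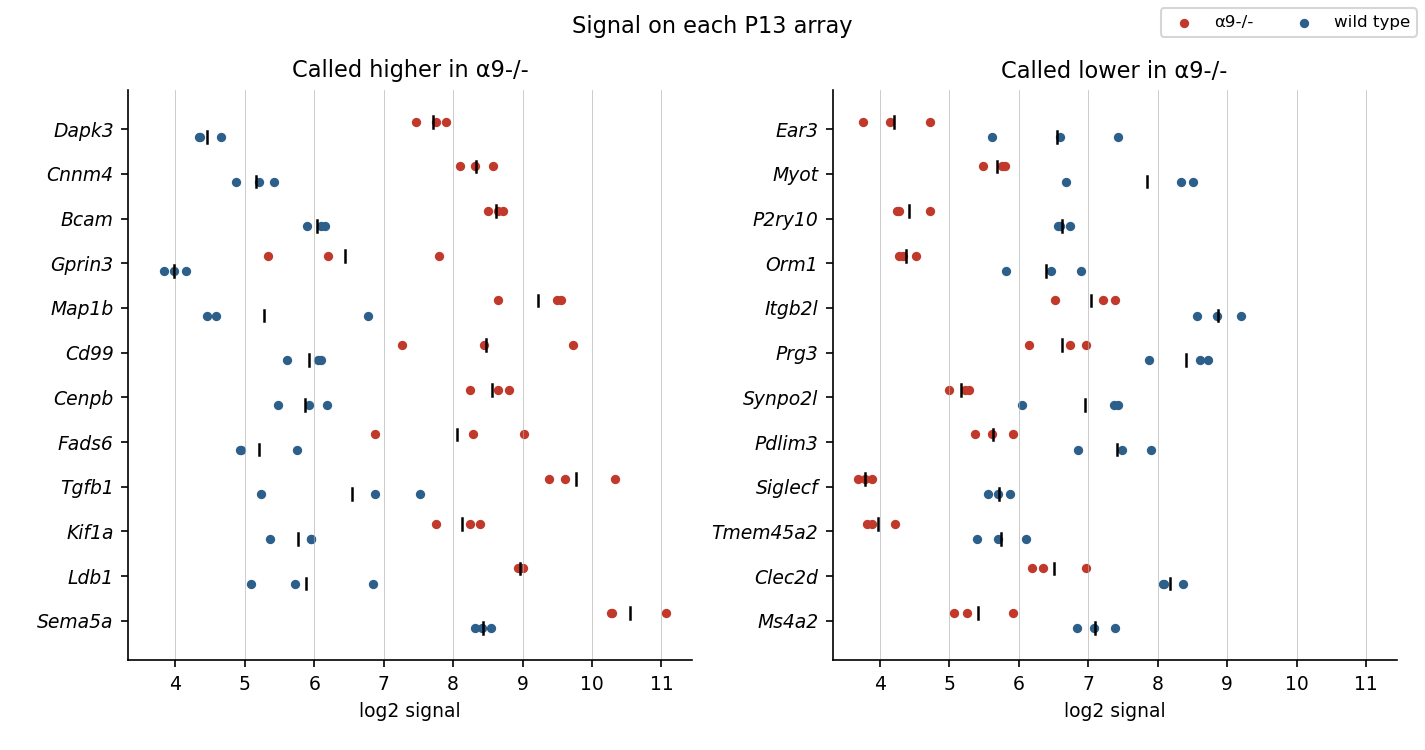
Log2 signal (x axis) of the 12 genes named in each direction, 1 point per P13 array and a line at each mean, α9-/- above wild type. The genotypes do not overlap for any gene shown, by the rule that chose them; Map1b, Tgfb1 and Ldb1 have 1 wild type array, replicate 3, above the other wild type arrays, while the wild type arrays of P2ry10 lie at 6.56 to 6.73.

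All 32 skeletal muscle genes were negative, with a median of -1.26, and 2 were called, beside 2.92% of all genes tested called lower. Myot, a Z-disc protein, had 5.80, 5.48 and 5.76 in α9-/- and 8.33, 6.68 and 8.51 in wild type (difference -2.16, adjusted p = 0.0456, limma). Wild type replicate 2 lay nearest the α9-/- arrays. It was also the lowest wild type array for Pdlim3 and Synpo2l, both Z-disc associated, which differed by -1.78 each. The other probe sets of Synpo2l differed by -1.38 to -0.15, and at the one brightest over the P13 arrays it was not called (-0.15, adjusted p = 0.612). With quantile normalization the calls of Myot and Synpo2l were lost (adjusted p = 0.0679 and 0.0699). The mean signal of the muscle list was 6.92 to 7.06 in α9-/- and 8.61, 7.10 and 9.17 in wild type replicates 1, 2 and 3. Its intact-minus-low median was 0.653, opposite in sign to its genotype difference. Chrnb1, a subunit of the muscle acetylcholine receptor, was the 1 cholinergic gene of 23 to be called (-0.85, adjusted p = 0.0448). With quantile normalization the call of Chrnb1 was lost (adjusted p = 0.0757). Myot reached 9.24 ± 0.78 in α9-/- and 9.26 ± 1.13 in wild type at P60 (SD, n = 3 each).

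The genes called higher were of mixed function. Dapk3, a death-associated protein kinase, had 7.90, 7.75 and 7.47 in α9-/- and 4.66, 4.36 and 4.34 in wild type, without overlap (difference 3.25, adjusted p = 0.00239, limma). Its other probe set differed by -0.93. Cnnm4, a magnesium transporter, had 8.32, 8.10 and 8.58 in α9-/- and 5.20, 5.42 and 4.88 in wild type, and its other probe sets differed by -0.89 and -0.36. For both, wild type replicate 3 stood with replicates 1 and 2, and the intact-minus-low values of 3.45 and 3.06 were close to the genotype differences of 3.25 and 3.17. Bcam, a laminin receptor with 1 probe set, had 8.50, 8.65 and 8.72 in α9-/- and 6.09, 5.89 and 6.15 in wild type (difference 2.58, adjusted p = 0.00239), with an intact-minus-low value of 2.21. Cenpb, a centromere protein, Kif1a, a neuronal motor, Ldb1, a LIM-domain cofactor, Map1b, a microtubule protein, and Cd99, a surface protein, differed by 2.36 to 3.95 and had intact-minus-low values of 3.00 to 4.42. Of 98 genes called higher with more than 1 probe set, 38 had every other probe set on the opposite side. Among the 243 genes called lower with more than 1 probe set, this held for 51.

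Some higher genes had little intact-minus-low difference. Gprin3, a protein linked to neurite outgrowth, had 5.34, 6.20 and 7.80 in α9-/- and 3.83, 4.15 and 3.98 in wild type (difference 2.46, adjusted p = 0.0495, limma). Its α9-/- arrays spread widely, and its intact-minus-low value was 0.08. With quantile normalization its call was lost (adjusted p = 0.0537). Sema5a, a guidance molecule, had 10.28, 10.29 and 11.07 in α9-/- and 8.31, 8.55 and 8.42 in wild type, with a difference of 2.12 and an intact-minus-low value of 0.40. A second Sema5a probe set, of nearly the same brightness, differed by -0.01. The potassium channel gene Kcnh2, chosen after its values were seen, had 8.43, 8.33 and 8.57 in α9-/- and 7.55, 7.28 and 7.44 in wild type (difference 1.02, adjusted p = 0.0322), and its intact-minus-low value was -0.07.

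Tgfb1, a growth factor, had 10.33, 9.61 and 9.38 in α9-/- and 6.87, 5.24 and 7.53 in wild type (difference 3.22, adjusted p = 0.0357, limma). With Bmp4 (1.19) and Smad5 (1.35) it made 3 higher genes of 32 in the TGF-β and BMP list, whose median was -0.111. Their intact-minus-low values were 1.79 for Tgfb1, 0.67 for Bmp4 and 1.12 for Smad5. The other probe set of Tgfb1 differed by 0.28, and those of Smad5 by -0.16 to 1.62.

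Among cell types of the cochlea itself few genes passed, and 1.09% of all genes tested were called higher. Of 16 hair cell genes 2 were higher and none lower, with a median of -0.0834. Calb2, the calcium buffer calretinin, had 11.87, 12.60 and 12.54 in α9-/- and 10.14, 10.61 and 11.38 in wild type (difference 1.62, adjusted p = 0.0464, limma). Its intact-minus-low value, a median over groups, was 0.27. In P60 wild type, though, the low 5′ array read 10.18 and the others 12.97 and 12.37. Pou4f3, a transcription factor of hair cells, had 5.36, 5.77 and 5.71 in α9-/- and 4.45, 4.33 and 3.87 in wild type, and its intact-minus-low value was 2.03. Slc26a5 (prestin, the motor protein of outer hair cells) and Otof (otoferlin, needed for transmitter release) differed by -0.34 and 0.07 and did not pass. In the list of supporting cells and the tectorial membrane, 2 of 18 were higher, with a median of -0.00201. Col11a2, a fibrillar collagen of the tectorial membrane and cartilage, had 12.82, 12.55 and 11.99 in α9-/- and 9.48, 8.77 and 10.88 in wild type (difference 2.75, adjusted p = 0.0379). At P7, with no low array, it had 12.54 ± 0.48 in α9-/- and 12.54 ± 0.65 in wild type (SD, n = 3 each). Otoa, which anchors that membrane, differed by 1.04, while the tectorins Tecta and Tectb differed by -0.26 and 0.16.

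Myelin genes lay slightly above 0 as a list, with a median of 0.409 against 3 wild type arrays and 0.177 against replicate 3, and 15 of 16 were positive. Gjb1, the connexin of Schwann cell myelin, had 7.20, 7.80 and 7.90 in α9-/- and 6.19, 5.84 and 6.02 in wild type (difference 1.62, adjusted p = 0.0271, limma). Pllp, plasmolipin of myelin, differed by 1.55 (adjusted p = 0.0456). Mbp, myelin basic protein, read 13.49, 14.01 and 14.03 in α9-/- and 13.29, 13.56 and 13.60 in wild type at its brightest probe set, a difference of 0.36 (adjusted p = 0.275). Its 7 other probe sets differed by -0.28 to 5.57. Among other genes that the study discusses, Capn1 differed by 0.84 (adjusted p = 0.0538; 2.43 at its dimmer probe set), Stom by 0.75 (0.0691), Adam10 by 0.13 (0.576) and Nedd8 by -0.20 (0.457), with none called. Of the GABA genes 0 of 16 were called, with a median of -0.314 (-0.864 against wild type replicate 3), and of the spiral ganglion neuron genes 0 of 21, with a median of 0.104 (-0.230 against replicate 3). The mean signal of the GABA list was 5.25 on α9-/- replicate 1 and 5.55 on wild type replicate 1, against 5.62 to 6.71 on the other α9-/- and 6.61 to 6.69 on the other wild type arrays. Cerebellar neuron genes followed a like order, at 6.92 and 7.28 on these replicates 1, against 7.63 to 8.31 on the other α9-/- and 8.95 to 9.23 on the other wild type arrays, and their part in the GABA values was not tested. Per the methods, fragments of cerebellum were taken off at dissection.

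**Figure D5:**
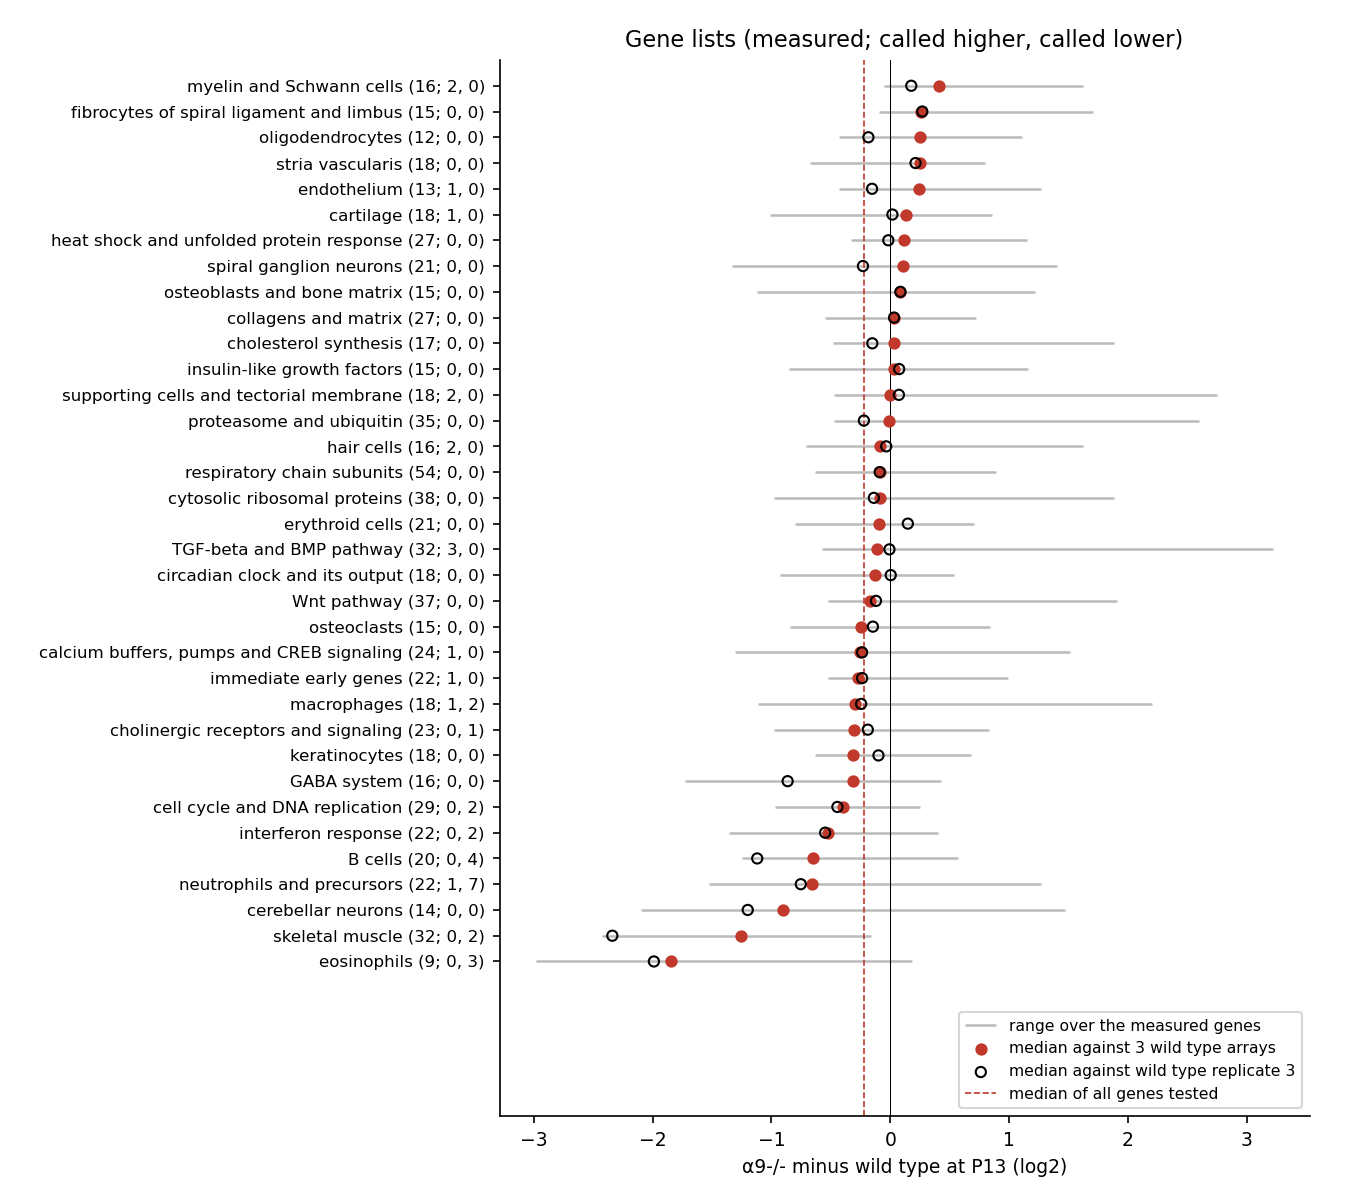
Median log2 difference at P13 (x axis), α9-/- minus wild type, for 35 gene lists (rows), against 3 wild type arrays (filled) and against wild type replicate 3 alone (open), with the range over measured genes as a line and the median of all genes dashed. Numbers in brackets are genes measured, called higher and called lower; eosinophil genes, at -1.85, and skeletal muscle genes, at -1.26, lie lowest.

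Neither housekeeping gene passed the test at its brightest probe set. Gapdh, at its brightest probe set, had 13.14 ± 0.17 in α9-/- and 12.79 ± 0.19 in wild type (SD, n = 3 each; difference 0.36, adjusted p = 0.220, limma). Actb had 14.01, 13.87 and 14.04 in α9-/- and 12.15, 12.70 and 13.34 in wild type (difference 1.24, adjusted p = 0.0524). The Gapdh control at its middle and 5′ end differed by 2.87 and 5.41, so probe sets of 1 transcript spanned over 5 on the log2 scale.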

How the data were processed

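Total RNA of pooled cochleae was labeled by the One-Cycle Target Labeling assay and hybridized to Affymetrix mouse arrays. The authors deposited log2 signals, after the background step of RMA, normalization by quantiles and a summary of probes by Tukey biweight, and these range from 2.35 to 15.0. They were not normalized further. Primers at the 3′ end make signal far from it sensitive to RNA length. Coordinates of probe sets were not used here. The number of arrays, not depth, limits the precision. Of 45101 probe sets, 34958 name 1 gene, 932 several and 9211 none, in the platform annotation. For 34754 of the 34958 the symbol was updated from RefSeq (GRCm38.p6).

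For each gene the probe set of highest mean over 24 arrays was tested at P13 with limma 3.58.1 in R 4.3.3 (moderated t, Benjamini-Hochberg over 18194 genes). A call needed an adjusted p under 0.05 and the sign of the difference from wild type replicate 3. Differences are α9-/- minus wild type. An array was taken as low 5′ where the 3′ end of the Gapdh control was brighter than its 5′ end by over 4. Poly-A control transcripts counted as absent under a log2 signal of 8. Named genes were up to 12 per direction by the smaller of the 2 differences (all wild type arrays, replicate 3), up to 4 called members per list, Chrna9 and genes named by the study, and Gapdh and Actb. Other genes in the text were chosen after their values were seen. Lists were described by counts and medians, with no set test. Members and lists were chosen with earlier results of these data known. The labels call the replicates biological, and each is a pool, so p-values measure the spread between pools.

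The fit was tested on simulated data with known changes. Alternatives covered the probe set, filters, scaling, array weights, the block, the 24 arrays, the threshold and leaving out arrays. Those on poly-A control transcripts were chosen after seeing the data. Figures were drawn with Python 3.11.15 and matplotlib 3.10.9. Array scans were not used here.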

Additional observations from a re-analysis of the deposited data

Results flagged for a closer look

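The knockout effect on P2ry10 at P13 differed from the mean effect of the other ages. At P3 and P7 its mean signals were 2.91 to 3.45, near the lowest value of 2.35, so a decrease could hardly be read there. The effect at P13 minus the mean effect at P3, P7 and P60 was -1.77 ± 0.23 on the log2 scale (SE; adjusted p = 0.00407, limma over 24 arrays), and all 3 α9-/- arrays lay below all 3 wild type arrays at P13. With low 5′ signal as a term the value was -1.60 (adjusted p = 0.00916). Against P60 alone it was -0.83 (adjusted p = 1). The signal was 4.41 ± 0.27 in α9-/- and 6.63 ± 0.09 in wild type at P13, and 4.67 ± 0.02 in α9-/- and 6.05 ± 0.52 in wild type at P60 (SD, n = 3 each). At P60 the wild type array of low 5′ signal was the highest, at 6.64.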

How the results depend on the processing

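The counts of called genes, 199 higher and 532 lower in α9-/-, depended on single arrays. Leaving out 1 array gave 3 to 907 higher and 0 to 1536 lower genes. Without α9-/- replicate 1, 2 or 3 the counts were 8, 3 and 3 higher and 3, 0 and 0 lower, and at an unadjusted p under 0.05 between 2652 and 3835 genes were lower. Without wild type replicate 1 they were 12 and 12, without replicate 2 they were 9 and 27, and without replicate 3, where no sign was required, they were 907 and 1536. Of the 53 named genes that were called, 42 to 50 lost their call without 1 of the other 5 arrays, and 1 did without wild type replicate 3. Fits over 24 arrays gave 8 higher and 80 lower genes, and 0 and 4 with low 5′ signal as a term. Wild type replicate 3 alone gave 4 and 25, of which 4 and 4 were called with all 6 arrays; here the lone array is assumed to vary like the α9-/- arrays. Scaling turned the balance, to 245 higher and 161 lower with quantile normalization of the 6 arrays and 256 and 194 with median centring, under which 13 and 11 of these 53 genes lost their call. The filters gave 346 lower (top 40% by variance) and 310 higher (above the median level). Array weights gave 1637 and 5043, and a difference of at least 1.5 gave 83 and 36. On the arrays without poly-A control transcripts 8 and 7 genes were called, and with these transcripts as a block 519 and 1641. Within replicate 1, which had them, the called genes had medians of 1.53 (higher) and -0.997 (lower), and within replicates 2 and 3 they had 1.30 and -0.973. The count of genes whose effect differed with age, 1, was 0 against P60 alone. The Gapdh difference between genotypes of -5.05 was -2.38 with the Actb control. The cause of these shifts was not tested.

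At the probe set brightest over the P13 arrays, Sema5a differed by -0.01 and Mef2c, a transcription factor, by -0.25, in place of 2.12 and 1.51, because another probe set was read, and Synpo2l by -0.15 (adjusted p = 0.612) in place of -1.78, which ended its call. No other named gene that was called changed sign under any alternative run. The replicate block gave 183 higher and 405 lower genes, of which 119 and 292 were called without it, and 14 of these 53 genes lost their call. Same-numbered arrays deviated together by r = 0.371, 0.184 and -0.0197, so the numbers were not taken to pair the arrays. Counts with another choice of probe set, with all probe sets in 1 fit and without the sign requirement stayed within 1.5 times.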
